A study of Mus musculus with 8 samples.

Results

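A set of 10 genes of the cytosolic heat shock system were followed between 2 sorted fractions of mouse esophageal epithelium. They were taken from a fixed list: the heat shock transcription factor gene Hsf1, the HSP70 genes Hspa1a, Hspa1b and Hspa8, the HSP110 gene Hsph1, the J-domain gene Dnajb1, the HSP90 gene Hsp90aa1, the small heat shock protein genes Hspb1 and Hspb8, and the co-chaperone gene Bag3. All 10 were found among the 55276 gene symbols of the deposited count table, and all 10 were among the 17344 genes with enough counts to be tested. The study took esophageal epithelium from 4 C57BL6 mice, 2 females and 2 males aged 14 to 15 weeks, with no allele or agent named in the labels. The epithelium was peeled from the muscle and brought to single cells with dispase and trypsin at warm temperature. Live cells stained for the surface protein integrin beta 1 were then split by Cyto-ID, a dye for autophagic vesicles, into Cyto-ID Low and Cyto-ID High, and bulk RNA was sequenced from each. Every animal gave 1 library of each fraction, so there were 4 libraries per fraction. All 8 libraries went through the same digestion and staining, so none shows the genes in undigested tissue.

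Heat shock proteins bind unfolded proteins and keep them soluble, refold them or pass them on for degradation. HSP70 works in a cycle that J-domain proteins start and that HSP110 and BAG proteins drive on by releasing its nucleotide, and HSP90 takes over later folding steps of selected clients. Heat shock factor 1 turns on many of these genes after heat or other protein damage, and a complex of BAG3, HSPB8, HSP70 and the ubiquitin ligase CHIP can send damaged proteins to autophagy. In stratified squamous epithelium HSPB1 is known to accumulate as keratinocytes leave the basal layer.

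Among the 10 genes, Hspb1, Hspb8 and Dnajb1 were higher in Cyto-ID High and Hsp90aa1 was lower. The other 6, which include Hsf1, both inducible HSP70 genes and Bag3, did not pass the test in either direction. Of these 6, Hsph1 was called higher when the fractions were paired by animal (log2 fold change 0.83, adjusted p = 0.000717 by edgeR). Levels are counts scaled to library size (CPM), adjusted between libraries by the TMM method. The test was edgeR's quasi-likelihood test with sex as a covariate, with a threshold of 0.05 on p after Benjamini-Hochberg adjustment over all tested genes. Calls were common in this contrast, in which 48.7% of all tested genes passed, 23.4% as higher in Cyto-ID High and 25.3% as lower. The 4 of 10 members called are thus no more than the share of all genes, and nothing is read from the count about the members as a group. With TMM, the median log2 fold change of the 10 members was 0.41, beside -0.09 over all tested genes. With scaling by total counts alone, all 10 had lower values and the median over all tested genes was -0.64.

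The promoters are shown because heat shock factor binds inverted repeats of the unit GAA, and the letters around such repeats can be set beside the response of each gene. RefSeq promoter windows (build GRCm38.p6), which run from 250 bases before the start of the transcript to 50 after it, were held for 7 members: Hspa1a, Hspa1b, Hspb1, Hspb8, Hsph1, Dnajb1 and Bag3. Hsf1, Hspa8 and Hsp90aa1 are named only. The windows were searched on both strands for 2 facing units, GAANNTTC or TTCNNGAA, and for 3 units in a row, GAANNTTCNNGAA or its other-strand form TTCNNGAANNTTC. The longer motif contains both shorter ones. Capitals mark the matched letters, and positions are counted from 0 at the start of the transcript.
Hspa1a (chr17:34972233-34972280, minus strand, positions -124 to -77): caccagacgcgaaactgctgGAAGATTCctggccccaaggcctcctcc
Hspa1b (chr17:34959315-34959362, minus strand, positions -124 to -77): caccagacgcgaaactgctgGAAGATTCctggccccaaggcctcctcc
Hspb1 (chr5:135887782-135887849, plus strand, positions -137 to -70): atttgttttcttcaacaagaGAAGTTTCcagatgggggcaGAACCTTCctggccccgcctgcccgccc
Hsph1 (chr5:149636342-149636389, minus strand, positions -74 to -27): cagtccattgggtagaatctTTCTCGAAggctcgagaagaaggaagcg
Hsph1 (chr5:149636280-149636308, minus strand, positions 7 to 35): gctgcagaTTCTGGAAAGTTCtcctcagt
Hspb8 (chr5:116422847-116422870, minus strand, positions -6 to 17): agccaggaGAAGTTTCtaggctcg
Bag3 (chr7:128523617-128523632, plus strand, positions 34 to 49): tgggaccaGAAGTTTC

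Hsph1, whose window is given for the more downstream of its 2 tabled start sites, was the member with the motif of 3 units. Over all 32851 promoter windows of the table, 0.603% held that motif and 15.1% held either pair of units. The pair GAANNTTC, which 7.86% of all windows held, was present in 6 of the 7 genes and at 2 places in Hspb1. The pair TTCNNGAA was found in Hsph1 alone of the 7, beside 8.52% of all windows. For Dnajb1 these letters are not in the windows of the table. The genes with matches include one that rose 4.17-fold (Hspb1), one that rose 2.12-fold (Hspb8) and ones that were not called (Hspa1a, Hspa1b, Hsph1 and Bag3). Of the latter, Hsph1 was called higher when the fractions were paired by animal (log2 fold change 0.83). A match of letters is a description and does not show a bound site.

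The sequences of Hspa1a and Hspa1b are near copies beyond the stretch shown. Their promoter windows had the same base at 296 of 300 positions (98.7%), and their longest open reading frames matched at 1889 positions, with 34 different. Of all stretches of 100 bases in the annotated transcripts, 56.5% of those of Hspa1a and 49.9% of those of Hspa1b occurred letter for letter in another gene's transcript. For Hspa8 the share was 32.1%, for Hsp90aa1 47.5% and for Hspb1 42.7%, there with predicted genes and annotated pseudogenes. Hsf1, Hsph1, Hspb8, Dnajb1 and Bag3 shared none. How the authors counted reads that fit more than 1 gene is not given in the sources used here, so the levels of the 5 genes with shared stretches are uncertain. The genes with shared stretches hold many counts: the 12 genes of the count table that share stretches of 75 bases with Hspa8, of which Snord14c, Snord14d and Snord14e lie within its own exons, had between 141% and 176% of the counts of Hspa8 itself, those of Hsp90aa1 had 82.7% to 139%, and those of Hspb1 had 17.7% to 26.9%. With each gene summed with these genes, the log2 fold change was 2.05 for Hspb1, -1.06 for Hsp90aa1 and -0.25 for Hspa8, and each stayed on the same side of the threshold. This sum was chosen after the data had been seen.

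The libraries were of even depth, with 26285150 to 29301054 counts each, but differed in composition. The TMM scaling factor was 1.16 to 1.30 in Cyto-ID Low and 0.679 to 0.944 in Cyto-ID High. Cyto-ID High of Male2 had the lowest factor and the fewest genes with a count, 22208 of up to 28266. All 10 listed basal keratinocyte genes were lower in Cyto-ID High (median log2 fold change -2.63), and all 12 listed suprabasal genes were higher (3.23). The transcript of Itgb1, the integrin used as the gate, was itself lower in Cyto-ID High (370 against 68.2 CPM). Cyto-ID level and stage of differentiation thus moved together and cannot be told apart in these libraries. In bulk RNA, fewer cells of a type and less RNA per cell cannot be told apart either. If libraries were scaled by total counts alone, the median of all genes would shift by -0.55 on the log2 scale, so a gene higher by less than that shift changes its direction.

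Hsf1, the gene of the transcription factor that induces most of the others, was expressed in both fractions. In Cyto-ID Low it stood at 63.3 and 53.2 CPM for the females (Female1, then Female2) and at 72.0 and 60.1 CPM for the males (Male1, then Male2). In Cyto-ID High it stood at 38.05, 41.8, 41.4 and 64.4 CPM in the same order. The High libraries of Female1, Female2 and Male1 lay under every Low library and that of Male2 lay among them, so the fractions overlapped. The means were 62.1 ± 7.8 CPM in Low and 46.4 ± 12.1 in High (SD, n = 4), a log2 fold change of -0.43 (SE 0.17, adjusted p = 0.0548 by edgeR). That value was just outside the threshold. Without the Cyto-ID High library of Male2 it was -0.59 and called (adjusted p = 0.00882 by edgeR). It was also called without the Low library of Female2 (adjusted p = 0.0414) or of Male2 (adjusted p = 0.0310), again by edgeR. With any 1 of the other 5 libraries left out it was not called, and without the High library of Male1 it was -0.33 (adjusted p = 0.149 by edgeR). Among the other settings, limma-voom (adjusted p = 0.0487), no filter (adjusted p = 0.0417), a minimum of 10 counts (adjusted p = 0.0129) and total counts (-1.01, adjusted p = 0.000119) called it. DESeq2, RLE scaling, robust dispersion, no covariate and the animal as a block did not, with adjusted p from 0.0515 (block) to 0.0806 (DESeq2).

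Of the listed relatives of Hsf1, 3 of 4 were expressed enough to be tested. Hsf2, a second heat shock factor, fell from 13.1 to 5.23 CPM (log2 fold change -1.32). Hsbp1, which encodes a small protein that binds heat shock factor 1, rose from 44.1 to 71.7 CPM (0.70). Hsf4 was not called (-0.55).

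Hspa1a and Hspa1b encode the stress-inducible HSP70. Hspa1b was among the most abundant transcripts of the cells, ranking between 30 and 67 by count among all genes. It measured 1565, 1340.5, 1875 and 1137 CPM in Cyto-ID Low of Female1, Female2, Male1 and Male2, and 1495, 1813, 2257 and 2882 CPM in Cyto-ID High. Hspa1a followed the same pattern at a lower level, with 399, 376, 518 and 298 CPM in Low and 386, 446, 576 and 639 CPM in High. For both genes Male2 was the lowest animal in Low and the highest in High, Female1 showed almost no difference, and the fractions overlapped.

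Neither gene passed the test. The log2 fold change was 0.48 for Hspa1b (95% confidence interval -0.03 to 0.98, adjusted p = 0.110 by edgeR). For Hspa1a it was 0.34 (-0.12 to 0.80, adjusted p = 0.210 by edgeR). Without the Low library of Male2 they were 0.31 and 0.17. The difference within Male2 was 1.34 for Hspa1b and 1.10 for Hspa1a on the log2 scale, and that in the other 3 animals ran from -0.07 to 0.44 and from -0.05 to 0.24. Because the 2 genes share so much sequence, their summed counts were tested as well, with a log2 fold change of 0.45 (adjusted p = 0.0932 by edgeR). With scaling by total counts both signs turned (-0.10 and -0.23). DESeq2 called Hspa1b higher (0.55, adjusted p = 0.0184).

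Hspa8 encodes the constitutive HSP70, which folds proteins in unstressed cells and takes part in chaperone-mediated autophagy. It measured 977, 902, 1196 and 893 CPM in Cyto-ID Low and 865, 736, 926 and 770 CPM in Cyto-ID High of Female1, Female2, Male1 and Male2. All 4 animals were lower in High by a similar step, from 0.18 to 0.37 on the log2 scale, yet the fractions overlapped because animals differed by more than the step. The log2 fold change was -0.27 (95% confidence interval -0.64 to 0.11, adjusted p = 0.223 by edgeR), and -0.17 without the Low library of Male1. Of the 6 other cytosolic HSP70 and HSP110 genes tested, of 7 listed, 1 was called: Hspa4l, an HSP110 relative, fell from 51.7 to 22.7 CPM (-1.19). Hspa4, its close relative, measured 297 ± 19.1 and 316 ± 43.3 CPM (SD, n = 4) and was not called.

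Hsph1 encodes HSP110, the nucleotide exchange factor of HSP70. It measured 106, 66.9, 151 and 48.9 CPM in Cyto-ID Low of Female1, Female2, Male1 and Male2, and 164, 122, 262 and 101 CPM in High. Each animal was higher in High than in Low by 0.63 to 1.04 on the log2 scale, but the animals lay so far apart that the fractions overlapped. The log2 fold change was 0.80 (95% confidence interval -0.06 to 1.65, adjusted p = 0.116 by edgeR). With the animal as a block, so that each High library is set against the Low library of the same mouse, it was 0.83 (SE 0.12) and called (adjusted p = 0.000717 by edgeR). Without a block, single libraries moved the value in both directions. Without the Low library of Male1 it was 1.19 (adjusted p = 0.0466) and without the High library of Male2 1.00 (adjusted p = 0.0435), both called by edgeR. Without the High library of Male1 it was 0.46 (adjusted p = 0.365) and without the Low library of Male2 0.58 (adjusted p = 0.229), neither called by edgeR. DESeq2 (0.88, adjusted p = 0.0313) and edgeR with no filter on low counts (0.76, adjusted p = 0.000570) called it. RLE scaling, a minimum of 10 counts, robust dispersion, limma-voom, no covariate and total counts did not, with adjusted p from 0.0837 (RLE) to 0.588 (total counts, 0.29).

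**Figure D1:**
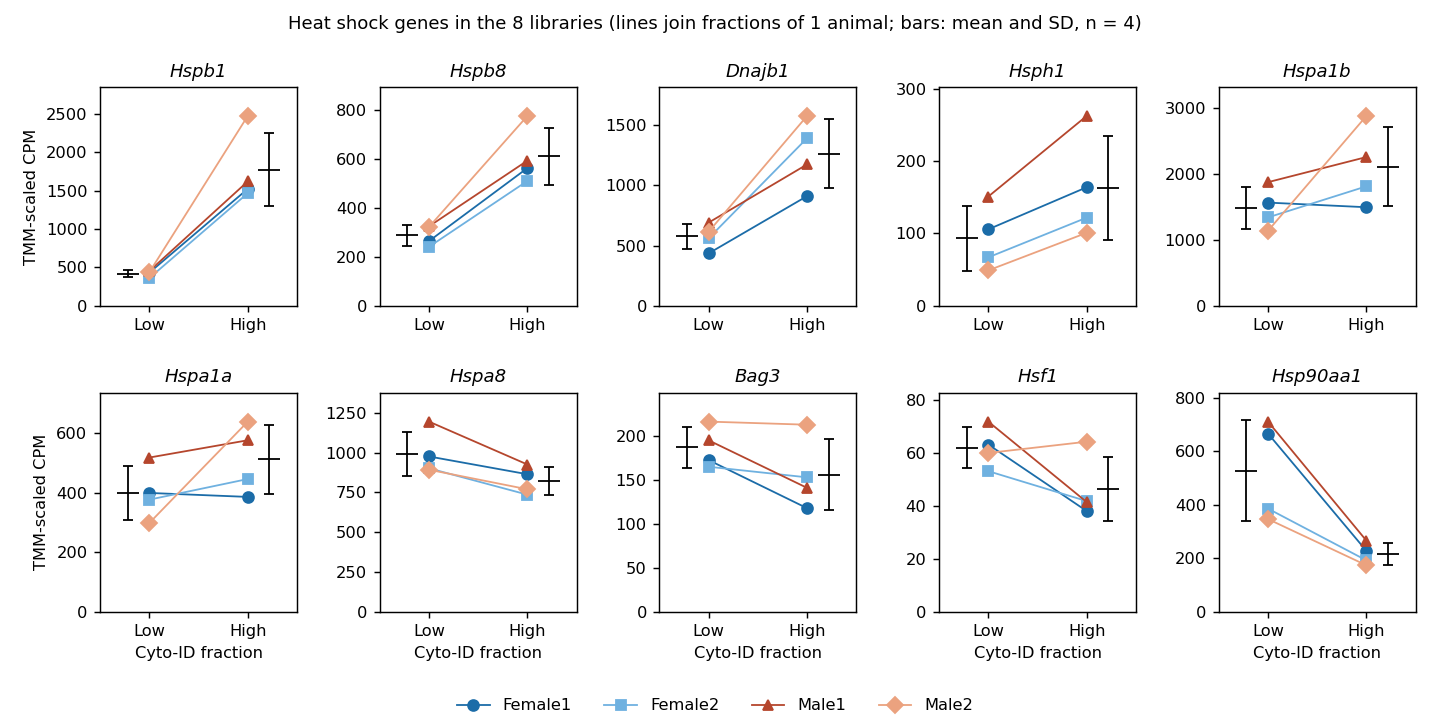
TMM-scaled CPM of the 10 genes (vertical axes, each from 0) in Cyto-ID Low and High libraries (horizontal axes). Lines join the fractions of 1 animal, and the bars beside them give the mean and SD over 4 animals. Hspb1, Hspb8 and Dnajb1 lie above every Low library in all 4 High libraries and Hsp90aa1 below while every line of Hsph1 goes up but starts at a different height.

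Dnajb1 encodes HSP40, the J-domain protein that loads clients on inducible HSP70. It measured 436, 562, 691 and 616 CPM in Cyto-ID Low and 912, 1394, 1175 and 1579 CPM in High of Female1, Female2, Male1 and Male2. The lowest High library lay above the highest Low library. Dnajb1 rose 2.21-fold (log2 fold change 1.14, SE 0.20, adjusted p = 0.00106 by edgeR), and by 0.77 to 1.36 on the log2 scale in the 4 animals. It kept its call under all 17 alternatives tried.

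Of 18 other J-domain genes tested, 7 rose and 5 fell, with a median log2 fold change of 0.30. Dnajb2, which guides clients to the proteasome, rose the most, from 36.3 ± 4.1 to 121 ± 16.6 CPM (SD, n = 4; 1.73). Dnaja2, a general HSP70 partner, rose from 160 to 268 CPM (0.75). Its relative Dnaja1 fell from 59.9 to 27.2 CPM (-1.13), and Dnajc9, a histone chaperone, fell from 25.1 to 12.4 CPM (-1.02). Dnajb4, a close relative of Dnajb1, was at 98.5 and 99.4 CPM and was not called. Dnajb5 of the same list, by contrast, rose from 5.80 to 11.8 CPM (1.03). With scaling by total counts the median of the list turned to -0.28.

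Hsp90aa1, the gene of the stress-inducible HSP90, was the member that fell. It measured 666, 385, 711 and 346 CPM in Cyto-ID Low of Female1, Female2, Male1 and Male2, and 227, 191, 265 and 173 CPM in High. Every High library lay below every Low library. The fold change was 2.46-fold lower in High (log2 -1.30, SE 0.27, adjusted p = 0.00315 by edgeR), between 1.00 and 1.55 lower in each animal on the log2 scale. Hsp90ab1, the constitutive HSP90 gene, stood at 2877 ± 259 CPM in Low and 3167 ± 466 in High (SD, n = 4) and was not called (0.14, adjusted over all genes by edgeR).

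Around HSP90, 3 of 13 listed genes rose and none fell, with a median log2 fold change of 0.20. Fkbp5, a steroid receptor co-chaperone, rose from 10.3 to 34.5 CPM (1.75). Cdc37, which brings kinases to HSP90, rose from 182 to 414 CPM (1.18), and Fkbp4, another receptor co-chaperone, from 189 to 301 CPM (0.67). With the animal as a block 6 of the 13 were called. The median turned to -0.34 with scaling by total counts.

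Hspb1, the gene of the small heat shock protein HSP27 (HSP25 in mice), had the largest difference of the 10. It measured 431, 361, 453 and 436 CPM in Cyto-ID Low of Female1, Female2, Male1 and Male2, and 1525, 1469, 1622 and 2477 CPM in High. The Low libraries lay close together, all High libraries lay far above them, and Male2 stood apart in High. Hspb1 rose 4.17-fold (log2 2.06, SE 0.19, adjusted p = 2.78e-05 by edgeR). With any 1 of the 8 libraries left out the log2 fold change stayed between 1.90 and 2.15.

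Hspb8, which encodes the small heat shock protein that binds BAG3, measured 265, 241, 325 and 323 CPM in Cyto-ID Low and 564, 511, 595 and 778 CPM in High, in the same order of animals. The fractions did not overlap. Hspb8 rose 2.12-fold (log2 1.08, SE 0.15, adjusted p = 0.000283 by edgeR), with the 4 animals between 0.87 and 1.27 on the log2 scale. Both small heat shock genes kept their calls under all alternatives tried, 18 for Hspb1 and 17 for Hspb8.

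The other genes on the list of small heat shock genes were expressed at a few CPM or less. Membership of that list was taken as given. Of 8 listed, 4 could be tested: Cryab, the gene of alpha B-crystallin, rose from 2.20 to 4.98 CPM (1.19), Hspb6 fell from 5.05 to 1.98 CPM (-1.35), Hspb11 fell from 8.25 to 4.26 CPM (-0.96), and Hspb7 was not called. Small heat shock proteins are also abundant in muscle, so muscle genes were measured beside them. The summed level of 12 skeletal muscle genes was 45.4 to 72.3 CPM in Low and 6.38 to 79.4 in High, and that of 8 smooth muscle genes was 55.4 to 90.1 and 26.1 to 44.5. None of the skeletal muscle genes and none of the smooth muscle genes was called higher, and 1 and 2 were called lower. Cyto-ID High of Male2, which had the highest Hspb1 and Hspb8, had the lowest sum of both muscle lists, with 3 of the 12 skeletal and 2 of the 8 smooth muscle genes at 0. The part of muscle in the levels of the small heat shock genes was not tested.

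Bag3 encodes the co-chaperone that joins HSP70 to HSPB8 and to the autophagy machinery. It measured 173, 165, 195 and 217 CPM in Cyto-ID Low of Female1, Female2, Male1 and Male2, and 118, 153, 141 and 213 CPM in High. All 4 animals were lower in High, by only 0.02 in Male2 and by up to 0.55 in Female1 on the log2 scale, and the fractions overlapped. The log2 fold change was -0.27 (95% confidence interval -0.65 to 0.11, adjusted p = 0.226 by edgeR). It was -0.16 without the High library of Male1 and -0.41 without that of Male2, and was called in neither case.

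Of 9 other BAG genes and HSP70 regulators, 5 rose and 1 fell, beside 23.4% and 25.3% of all tested genes, with a median log2 fold change of 0.43, which turned to -0.14 with scaling by total counts. Bag2, an inhibitor of the ligase CHIP, rose from 22.2 ± 4.2 to 116 ± 20.7 CPM (SD, n = 4; 2.38), the largest rise on these lists. Bag4 rose from 18.1 to 37.5 CPM (1.05), Bag1 from 89.2 to 155 CPM (0.79), and Stub1, the gene of CHIP itself, from 27.6 to 49.4 CPM (0.83). Bag5 fell from 34.7 to 18.6 CPM (-0.90).

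Among 8 listed partners of chaperone-assisted autophagy, Stub1 included, 4 rose and 1 fell, with a median of 0.59. Sqstm1, the gene of the ubiquitin-binding autophagy receptor p62, rose from 260 ± 71.0 to 690 ± 228 CPM (SD, n = 4; 1.41). Dynll1, a dynein light chain, rose from 189 to 591 CPM (1.64), and Ywhag, a 14-3-3 gene whose protein links BAG3 to dynein, from 223 to 462 CPM (1.05). Hdac6, which carries aggregates along microtubules, fell from 23.7 to 15.4 CPM (-0.62). Synpo2, a muscle partner of BAG3, was at 1.37 and 0.83 CPM and was not called.

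The remaining lists hold chaperones of other compartments and the chaperonin. Of 10 chaperone genes of the endoplasmic reticulum, 6 rose and none fell (median 0.64), among them Hspa5 (BiP), from 764 to 1447 CPM, and the lectin chaperone Calr, from 395 to 824 CPM. Of 8 subunit genes of the chaperonin CCT, 7 were not called and Cct4 fell from 295 to 164 CPM (-0.84). Of 8 mitochondrial chaperone genes, Clpb (0.99) and Grpel1 (0.72) rose and Hspe1 fell (-0.88). None of 4 ubiquitin genes was called. With scaling by total counts, 2 of the 10 genes of the endoplasmic reticulum, 8 of 8 of CCT, 7 of 8 of the mitochondrial genes and 2 of 4 ubiquitin genes were called. Over the 11 lists together, without the 10 members, 28 of 90 tested genes rose, 13 fell and 49 were not called, with a median of 0.13. All tested genes, with 48.7% called and a median of -0.09, stand beside that, and nothing is read from the counts of these lists about chaperones as a group.

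**Figure D2:**
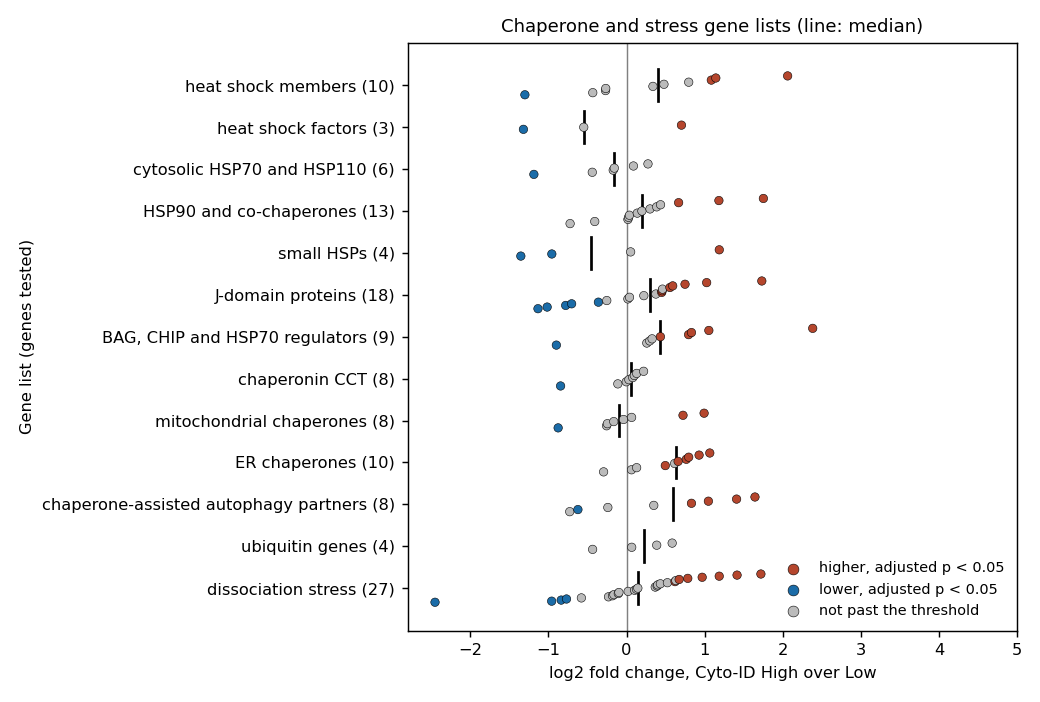
log2 fold change of Cyto-ID High over Low (horizontal axis) for each tested gene of the chaperone and stress lists (vertical axis, number tested in brackets). Red points are higher and blue points lower at adjusted p under 0.05 by edgeR, grey points are not past it, and black lines are medians. Medians run from -0.55 (heat shock factors, 3 genes) to 0.64 (chaperones of the endoplasmic reticulum).

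The scaling of libraries moved all 10 members together. Against TMM, size factors of the RLE method raised the median of all genes by 0.07 on the log2 scale and total counts lowered it by 0.55. Taken relative to the median of all genes, Hspb1 was at 2.15 with TMM, 2.15 with RLE and 2.12 with total counts. Hsp90aa1 was at -1.21, -1.20 and -1.20. Bag3 was at -0.18, -0.18 and -0.22, and Hspa1b at 0.57, 0.57 and 0.54. Relative to that median, the order of the 10 members was the same under the 3 scalings. Scaling changes all genes of a library by a common factor, so these relative values were nearly bound to agree.

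**Figure D3:**
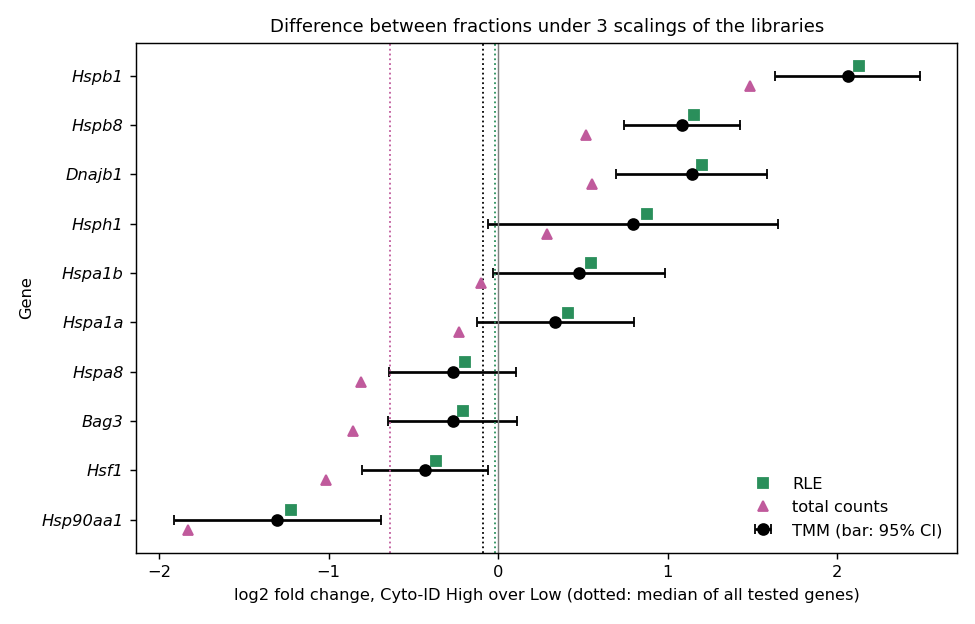
log2 fold change of Cyto-ID High over Low (horizontal axis) of the 10 genes under TMM, RLE and total-count scaling, with the 95% confidence interval for TMM. Dotted lines are the medians of all tested genes, and total counts shift that median by -0.55 and the 10 genes along with it.

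Ratios of 2 genes within a library need no scaling. They were chosen after the values had been seen and are given as descriptions. The counts of Bag3 were 0.601 to 0.684 of those of Hspb8 in Cyto-ID Low and 0.209 to 0.299 in High. Dnajb1 had 0.446 to 0.689 of the counts of Hspa8 in Low and 1.05 to 2.05 in High. Hspa1a and Hspa1b together had 1.61 to 2.01 times the counts of Hspa8 in Low and 2.17 to 4.57 in High. Hspb1 had 0.637 to 1.26 times the counts of Hsp90aa1 in Low and 6.12 to 14.3 in High. In each of these 4 ratios the fractions did not overlap. The ratio of Hspa1b to Hspa1a, by contrast, overlapped, at 3.56 to 3.92 in Low and 3.88 to 4.51 in High.

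**Figure D4:**
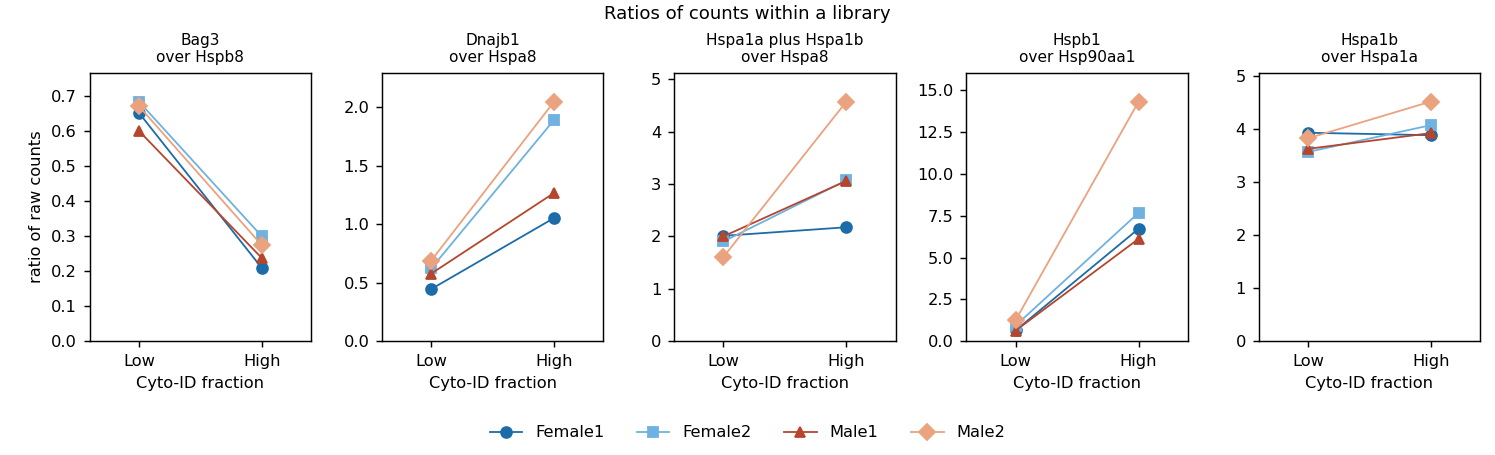
Ratio of raw counts of 2 genes (vertical axes, each from 0) in the Cyto-ID Low and High library of each animal (horizontal axes, joined by lines). Bag3 over Hspb8 drops in every animal, from 0.601 to 0.684 down to 0.209 to 0.299, and Hspa1b over Hspa1a stays between 3.56 and 4.51.

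Levels can be set against each other only per length, here as CPM per kilobase of annotated exons (GENCODE M21, GRCm38). That length merges the exons of all annotated transcripts, for Hsf1 7099 bases from 16 transcripts. With the length of a single transcript the levels, and the order of close neighbours, can differ. In Cyto-ID Low, Hspa1b was highest at 528 ± 113, then Hspb1 at 408 ± 39.5, Hspa8 at 231 ± 32.8, Dnajb1 at 180 ± 33.6 and Hspb8 at 148 ± 21.6 (SD, n = 4). Hsp90aa1 at 134 ± 47.8 and Hspa1a at 134 ± 30.7 followed, then Bag3 at 73.2 ± 9.1, Hsph1 at 12.8 ± 6.2 and Hsf1 at 8.75 ± 1.10. From Hspa8 down to Hspa1a the ranges of neighbours overlapped, as did those of Hspa1b and Hspb1 and of Hsph1 and Hsf1. In Cyto-ID High, Hspb1 stood first at 1720 ± 459, above Hspa1b at 753 ± 214, Dnajb1 at 395 ± 89.7 and Hspb8 at 314 ± 59.4, of which Dnajb1 and Hspb8 overlapped. Hspa8 at 192 ± 20.2 and Hspa1a at 172 ± 39.2 overlapped, as did Bag3 at 61.0 ± 15.9 and Hsp90aa1 at 54.4 ± 10.4, and Hsph1 (22.3 ± 9.9) and Hsf1 (6.54 ± 1.70) were lowest. The order of Hspa1a, Hspa1b, Hspa8, Hsp90aa1 and Hspb1 depends on how reads from their copies were counted. The 10 genes together held 0.507% to 0.728% of all counts of a library.

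The genes lie apart in the genome except for the HSP70 pair. In GRCm38, Hspa1b is at chr17:34956436-34959238 and Hspa1a at chr17:34969190-34972156, each of 1 exon on the minus strand, and Hspa1a overlaps exons of Gm20481 on the other strand over 564 bases. Hspb8 (chr5:116408491-116422864, minus), Hspb1 (chr5:135887919-135889563, plus) and Hsph1 (chr5:149614287-149636376, minus) are on chromosome 5. Hsf1 is at chr15:76477422-76501913 (plus), Hspa8 at chr9:40800984-40810087 (plus), Hsp90aa1 at chr12:110690605-110702728 (minus), Dnajb1 at chr8:83608193-83612653 (plus) and Bag3 at chr7:128523616-128546981 (plus). Exons of Hspa8 also hold the small nucleolar RNA genes Snord14c, Snord14d and Snord14e on the same strand. Whether strand was used in counting is not given in the sources used here, so reads of Hspa1a and Gm20481 cannot be told apart over the overlap.

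Animals differed in several members beyond the difference between fractions. For Hsph1 and Hsp90aa1 the 4 animals had the same order in both fractions, Male1 above Female1 above Female2 above Male2. Such a repeated order was seen in 2 of 10 members and in 10.8% of all tested genes. The highest animal was 3.09 times the lowest in Low and 2.60 times in High for Hsph1, and 2.05 and 1.53 times for Hsp90aa1. Between fractions Hsp90aa1 fell, while Hsph1 was higher in High in each of the 4 animals but did not pass the main test. Within each animal the 2 genes thus moved apart between fractions, while they moved alike between animals.

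Deviations of log2 CPM from the mean of the fraction, over the 8 libraries, show which members moved alike. Hsph1 and Hsp90aa1 had a correlation of 0.95, Hsph1 and Hspa8 of 0.91, and Hspa8 and Hsp90aa1 of 0.84. Hspa1a and Hspa1b had 0.97, which their shared sequence bears on. Hsf1, Hspb1, Hspb8 and Bag3 had correlations of 0.79 to 0.95 with each other, and among the High libraries each was highest in Male2. Hsf1 and Hspa1b (0.83) and Dnajb1 and Bag3 (0.81) were within that range too. Hsph1, Hsp90aa1 and Hspa8 had correlations of -0.45 (Hsph1 and Bag3) to 0.21 (Hspa8 and Hspb8) with Hsf1, Hspb1, Hspb8 and Bag3. These libraries share their scaling factors, and that of Male2 High is the lowest, so the correlations are given without p. The 5 non-members with the deviations most like the summed Hspa1a and Hspa1b, of 11033 genes at a mean of 5 CPM or more, were Taok2 (0.99), Nisch (0.99), Gripap1 (0.98), Als2cl (0.98) and Plch2 (0.98).

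**Figure D5:**
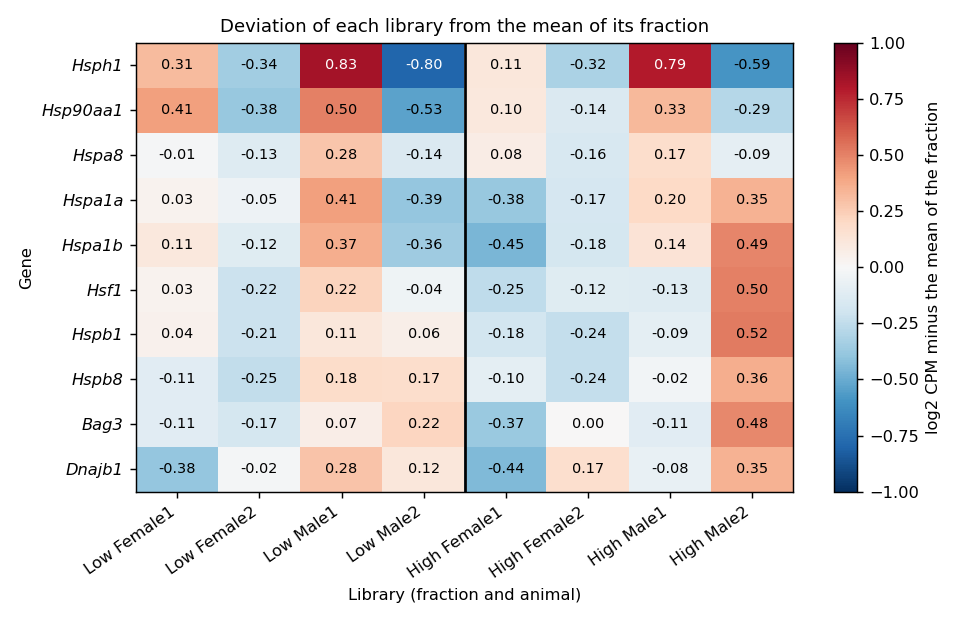
Deviation of log2 CPM from the mean of the fraction (color and printed value) for the 10 genes (rows) in the 8 libraries (columns). The upper rows, Hsph1 and Hsp90aa1, are high in both libraries of Male1 and low in both of Male2, and among the High libraries 7 of the 10 genes are highest in Male2.

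No member was called for sex. The interaction of sex and fraction called 0 of 17344 genes (0% of those tested, edgeR, with 19 at an unadjusted p under 0.05), and no member was among those 19. The largest interaction was that of Hspa1b, 0.58 more difference in males on the log2 scale, with a 95% confidence interval of -0.44 to 1.60. Between the counts of 2 male and 2 female animals, both fractions summed, 4 of 19687 genes were called (0.0203%, edgeR, with 284 at an unadjusted p under 0.05), and none was a member. With 2 animals a sex these tests could miss sizeable differences.

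Genes that tissue dissociation is known to induce were measured beside the members, because heat shock genes can respond to it as well. Of 27 such genes, mostly immediate early genes and none of them a member, 7 rose, 4 fell and 16 were not called, so the share called was no more than the 48.7% of all tested genes. Their median log2 fold change was 0.14, which turned to -0.46 with scaling by total counts. Egr3 (1.72), Btg2 (1.41), Egr2 (1.19) and Ier5 (0.97), a gene known as a target and partner of heat shock factor 1, rose. Socs3 (-2.45), Atf3 (-0.96), Jun (-0.84) and Klf6 (-0.77) fell. Fos, at 1967 ± 546 CPM in Low and 2551 ± 1137 in High (SD, n = 4), and Egr1, at 1107 ± 231 and 1460 ± 594, were abundant in both fractions and not called.

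The summed level of the 27 genes was 22137, 22335, 26825 and 24523 CPM in Cyto-ID Low of Female1, Female2, Male1 and Male2, and 14970, 25243, 17640 and 31161 CPM in High. The fractions overlapped, and High spread more widely than Low, from the lowest to the highest of all 8 libraries. In High, the order of the animals by this sum, Male2 above Female2 above Male1 above Female1, was also the order of Hsf1, Dnajb1 and Bag3, 3 of 10 members, beside 16.1% of all tested genes. Dnajb1 followed the order of the sum in Low as well, which 0.427% of all tested genes did. Hspb1, Hspb8, Hspa1a and Hspa1b followed the full order in neither fraction. In each fraction, however, all of them were highest in the library in which the sum was highest. Hsph1 and Hsp90aa1 were highest in the Low library with the highest sum and lowest in the High library with the highest sum. These orders were looked at after the values were known, and the part of dissociation in the levels of the members was not tested.

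Markers of other cell types were low but uneven. The sum of 8 fibroblast genes was 372 to 572 CPM in Low and 39.5 to 607 in High, that of 8 leukocyte genes 48.5 to 81.4 and 9.26 to 79.3, and that of 8 endothelial genes 16.1 to 31.0 and 3.14 to 38.5. Of these lists, Dcn of the fibroblast list fell and Cd52 of the leukocyte list rose, and no endothelial gene was called. The High library of Male2 had the lowest sum in each of the 3, and of the 4 animals it had the largest rise of Hspb1 (2.50), Hspb8 (1.27), Dnajb1 (1.36) and Hsph1 (1.04) on the log2 scale. The same library had the highest sum of the suprabasal genes, 255030 CPM beside 150849 to 193938 in the other High libraries. Its sum of the basal genes, 4297 CPM, lay within the 2882 to 4577 CPM of the others. The part of these traits in the rises was not tested. Without that library Hspb1, Hspb8, Dnajb1 and Hsp90aa1 kept their calls. Among all genes, 48.6% had values that did not overlap between fractions, and among the members these same 4 did.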

How the data were processed

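The authors deposited raw read counts per gene symbol for the 8 libraries in 1 table, and every count used here is from it. Per the submitters' processing notes, reads were aligned with STAR 2.7.3, the build was GRCm38 and DESeq2 was used; the counting tool, its strand setting and its treatment of reads that fit several genes are not given in the sources used here. Counts of replicates came from different animals, and no 2 libraries of the same fraction agreed within sampling noise (chi-square per degree of freedom of at least 17.7). Counts were tested with edgeR 4.0.16 in R 4.3.3 (TMM scaling, filterByExpr, sex and fraction as terms) and adjusted over all tested genes at 0.05. Alternatives used DESeq2 1.42.0, limma 3.58.1, other scalings, filters and covariates, and each library left out. log2 CPM values for deviations used a prior count of 2. The labels name the animal, so fractions are paired by animal. Deviations of same-animal libraries correlated at 0.43, 0.32, -0.02 and 0.28, and those of different animals at -0.37 to 0.35. The High library of Male1 correlated best with the Low library of Female1 (0.35), not with its own. The script was tested on simulated counts. The members and lists were chosen with earlier results of these data known. All 10 members are named; other genes were named for the largest called changes of their list or as relatives of members. Of the 55276 symbols, 53388 were found in GENCODE M21.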

Additional observations from a re-analysis of the deposited data

Results flagged for a closer look

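Both results that stood out came from the Cyto-ID High library of Male2, which lay far from the other 3 libraries of its group. Its Hsf1 level was 64.4 CPM where the others were 38.05 to 41.8, and its Hspb1 level was 2477 CPM where the others were 1469 to 1622. In all, 68 groups of 4 values were examined, and chance places about 1 in 20 of such groups past the limit, so 2 are no more than chance would give. That library also had the lowest TMM factor (0.679). The part of that factor in the 2 values was not tested.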

How the results depend on the processing

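The calls of Hspb1, Hspb8, Dnajb1 and Hsp90aa1 held under every alternative run, and no called member lost its call. The members called numbered 4, and between 4 and 6 with 1 library left out. With scaling by total counts alone they numbered 7: Hsf1 (-1.01), Hspa8 (-0.81) and Bag3 (-0.86) were then called lower, and Hspa1a (-0.23) and Hspa1b (-0.10) changed sign without being called. That scaling also left 20.5% of the called genes on the higher side, beside 48.0% with TMM. It raised the genes called on the CCT list from 1 to 8, on the mitochondrial list from 3 to 7, on the cytosolic HSP70 list from 1 to 4, on the HSP90 list from 3 to 8 and on the ubiquitin list from 0 to 2, and lowered those of the endoplasmic reticulum from 6 to 2. RLE factors and DESeq2 each called 5 genes of the HSP90 list.

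With the animal as a replicate block 5 members were called, Hsph1 being added (0.83), and 9336 genes in all beside 8440; no other member's call changed.

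Male against female animals, 4 genes were called, 0 in the High libraries alone, 1 in the Low libraries alone and 15 with no filter on low counts, none of them a member. The interaction called 0 genes under each of 3 alternatives. The 4 animals, not the depth, set the precision: each member had 961 counts or more in every library.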
